A study of Homo sapiens with 4 samples.

Results

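The comparison described here is that of FTC-133 cells transfected with a vector for CRABP1 overexpression and FTC-133 cells transfected with an empty vector. It rests on 2 of the 4 RNA sequencing libraries of the study, 1 per group. The other 2 libraries come from the line 8505C, with the same pair of vectors, and are used only where their values are set beside those of FTC-133. FTC-133 is a human cell line established from a follicular thyroid carcinoma, and 8505C a line from an anaplastic thyroid carcinoma. Total RNA was extracted with Trizol, and the labels give neither the time after transfection, nor the culture conditions or any added retinoid, nor whether the transfected cells were a pool or 1 clone. Genes were taken by a rule on level alone: of 58884 genes in the table, the 19899 with a mean of at least 1 TPM over both FTC-133 libraries. TPM is a unit in which the reads of a gene are corrected for its length and every library has the same sum. For each gene the log2 ratio is log2 of TPM plus 1 with CRABP1 over TPM plus 1 with vector, a scale that understates the change of genes at low levels.

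CRABP1, cellular retinoic acid binding protein 1, is a small cytoplasmic protein that binds retinoic acid, the active form of vitamin A. Retinoic acid otherwise reaches the nucleus, where it binds the retinoic acid receptors and changes transcription. CRABP1 is best known for holding retinoic acid in the cytoplasm and passing it to the enzymes that degrade it, and it has also been linked to kinase signalling in the cytoplasm. Among the groups of genes described below, those of the NF-kB pathway answer to dimers that are held in the cytoplasm by inhibitor proteins and released by stimuli such as TNF and interleukin 1. Interferon-stimulated genes answer to STAT and IRF factors, and glycolytic genes are classical targets of the hypoxia-inducible factors.

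About 20331464 reads lay behind the vector library and 20309248 behind the CRABP1 library, as recovered from the steps of the low TPM values. No group had a replicate, so no test between the groups was possible: the intervals in parentheses after a fold are 95% intervals of the plain TPM ratio, and cover counting error only. A gene is called 2-fold higher or lower here when its log2 ratio reached 1 or -1. Because 1 is added to each TPM, a gene whose plain TPM ratio exceeds 2 may not be called. Among the 19899 genes, 1198 (6.02%) were 2-fold higher with CRABP1 and 979 (4.92%) 2-fold lower, the median log2 ratio was 0.06, and 57.8% of genes lay above 0. Most of these calls came from thinly covered genes: 39.2% of the genes with fewer than 20 reads in both libraries together were past 2-fold. Among 12769 protein-coding genes that had 20 reads or more, 263 (2.06%) were 2-fold higher and 187 (1.46%) 2-fold lower, and for 208 and 138 of them the whole interval lay beyond 2-fold. Counts for gene lists below are to be read against these shares. The share of these genes past 2-fold was 7.73% at a mean of 1 to 5 TPM and 1.73% at 20 to 100 TPM. The 37 mitochondrially encoded genes held 28.6% of the TPM with vector and 25.9% with CRABP1. In bulk RNA, fewer cells that express a gene and less of its RNA per cell cannot be told apart.

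**Figure D1:**
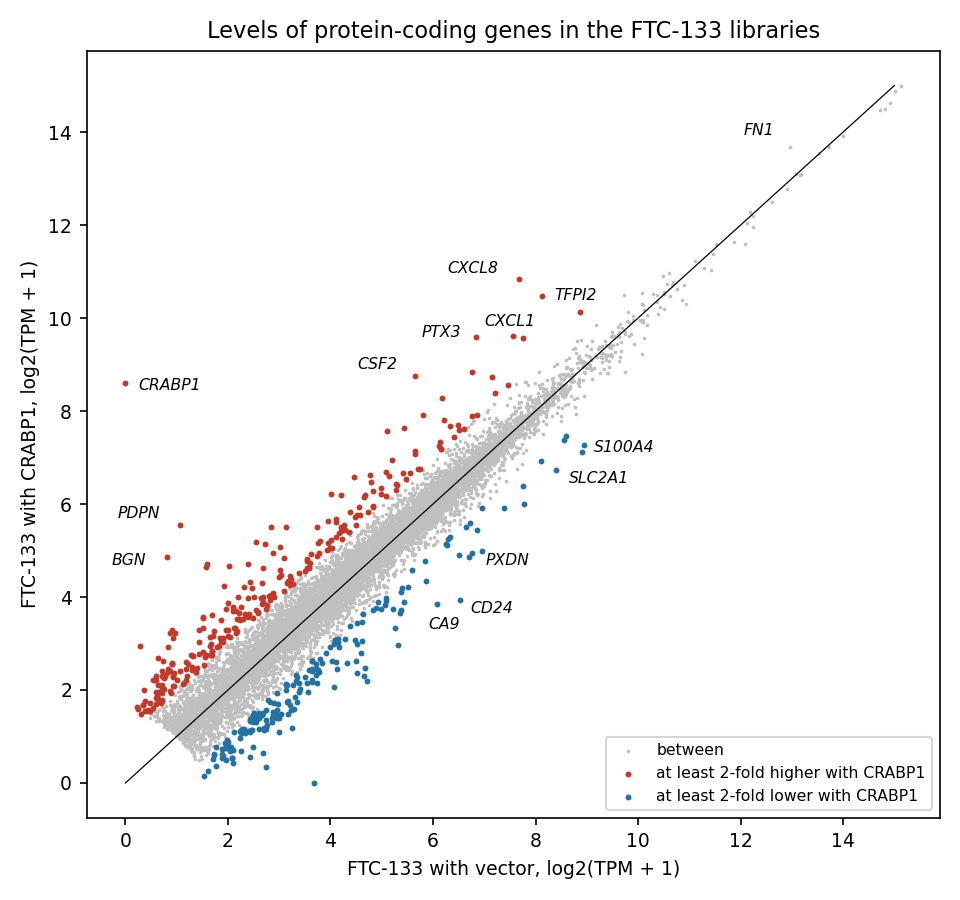
Level of each protein-coding gene with 20 reads or more in the FTC-133 library with vector (horizontal axis) and with CRABP1 (vertical axis), both as log2(TPM + 1). Red points are the 263 genes at least 2-fold higher with CRABP1, blue points the 187 at least 2-fold lower, and the line marks equal levels. CRABP1 stands alone at 0 with vector and near the level of CSF2 with CRABP1.

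CRABP1 itself (ENSG00000166426, GRCh38, chromosome 15, 78340324 to 78348230, plus strand) was listed at 0 TPM in the vector library, where 3 reads would have given 0.555 TPM. In the library labelled CRABP1 it stood at 385 TPM from 2018 reads. The targeted gene thus followed the labels. Reads of the vector and of the endogenous gene could not be separated in the table.

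The identity of the cells was read from marker lists. Of 4 thyroid transcription factors, PAX8 was at 100.1 and 143 TPM with vector and with CRABP1, and this order of the libraries holds throughout. NKX2-1 was at 44.7 and 17.7 TPM, FOXE1 at 8.06 and 15.2 TPM and HHEX at 8.45 and 9.32 TPM. Of 15 genes of thyroid function, 4 passed the filter, among them the deiodinase DIO2 and the hormone receptors THRA at 23.3 and 22.6 TPM and THRB at 7.39 and 8.83 TPM. Genes of hormone production did not: thyroglobulin (TG), the TSH receptor (TSHR), the iodide symporter (SLC5A5), pendrin (SLC26A4) and the DUOX oxidases were all under the level filter. Thyroid transcription factors were thus present in both libraries, whereas the defining functional markers of a follicular cell were at 0 or at a mean below 1 TPM. Of 17 leukocyte markers, 2 passed the filter (CSF1R and CD79A), and the summed TPM of all 17 was 5.15 with vector and 4.99 with CRABP1, with a median log2 ratio of -0.07 and with PTPRC and CD3E under the filter. Of 12 endothelial markers, 5 passed, 4 of them above 0 and 1 past 2-fold, with a median of 0.73 and a summed level over all 12 of 13.2 and 26.0 TPM. That median was 0.19 with no level filter and 0.45 with mitochondrially encoded genes removed. TIE1, an endothelial receptor kinase, was at 0.877 and 8.76 TPM, whereas CDH5, VWF and CLDN5 were under the filter. Of 14 fibroblast markers, 11 passed, with a summed level over all 14 of 865 TPM with vector and 684 TPM with CRABP1. They split in both directions, with a median of 0.04: PDPN, BGN and MEOX2 were 2-fold higher and COL1A1 and CXCL12 2-fold lower. The list was written with earlier results of these data known. PDPN, BGN and MEOX2 also rank 1, 2 and 4 by higher ratio among protein-coding genes at a mean of at least 10 TPM and 100 reads. Their place in the list is thus not separate support. DCN, PDGFRA and TCF21 were under the filter in both libraries. What part other cell types have in the results was not tested.

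Promoter windows of 8 genes of the NF-kB, cytokine and chemokine lists are shown first, because they share letters of a known binding site of NF-kB. They were chosen, after their values were seen, among genes 2-fold higher whose promoter held a match. The 250 bases before the RefSeq start of each gene (GRCh38.p14) were searched on both strands for GGNNTTTCC, a simplified NF-kB site, in which N stands for any base. Windows of 60 bases are printed 5′ to 3′ on the gene's strand, with the match nearest to the start in capitals.
CXCL8, chr4:73740453-73740512, plus strand: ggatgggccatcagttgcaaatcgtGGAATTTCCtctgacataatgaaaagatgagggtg
CXCL6, chr4:73836564-73836623, plus strand: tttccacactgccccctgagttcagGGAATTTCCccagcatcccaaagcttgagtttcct
CXCL1, chr4:73869315-73869374, plus strand: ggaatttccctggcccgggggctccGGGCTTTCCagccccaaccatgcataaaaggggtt
CXCL2, chr4:74099214-74099273, minus strand: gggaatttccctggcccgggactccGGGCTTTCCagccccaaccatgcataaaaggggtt
CXCL3, chr4:74038708-74038767, minus strand: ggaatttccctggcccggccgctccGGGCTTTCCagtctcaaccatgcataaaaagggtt
IL6, chr7:22727103-22727162, plus strand: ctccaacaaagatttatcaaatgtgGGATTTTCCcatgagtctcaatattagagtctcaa
VCAM1, chr1:100719655-100719714, plus strand: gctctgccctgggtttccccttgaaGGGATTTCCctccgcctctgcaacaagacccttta
NFKBIA, chr14:35404796-35404855, minus strand: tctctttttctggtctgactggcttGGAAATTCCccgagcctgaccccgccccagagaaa
The windows of CXCL1, CXCL2 and CXCL3, chemokines that arose by duplication, are nearly the same sequence, with the capitals 53 bases before the start in all of them and a further match in lower case upstream. Those of CXCL8 and CXCL6 have their match 91 and 89 bases before the start. Of the chemokine ligands that passed the filter, 12 had a promoter in the RefSeq table and 9 of these (75.0%) held the motif. The same letters were found in 5.48% of all 27305 promoters of the table and in 5.89% of those of the protein-coding genes with at least 20 reads. Among genes 2-fold higher with CRABP1 the share was 12.0% (23 of 191 promoters), and among genes 2-fold lower 4.76% (7 of 147). The promoters of CSF2 and PTX3 had no match in this window, although both genes were among the highest ratios. A match is a description of the sequence and not evidence that a factor bound there.

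A second set of windows shows the core of the interferon-stimulated response element, searched as GAAANNGAA on both strands. Those printed were likewise chosen, with their values known, among genes 2-fold higher whose promoter held a match. IFIT1 and IFIT3, which were not called 2-fold higher, held 2 matches each and are not printed.
IFI6, chr1:27672251-27672310, minus strand: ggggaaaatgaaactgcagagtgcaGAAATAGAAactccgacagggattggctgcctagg
ISG15, chr1:1013371-1013430, plus strand: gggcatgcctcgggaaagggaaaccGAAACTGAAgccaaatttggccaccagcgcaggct
IFITM1, chr11:313975-314034, plus strand: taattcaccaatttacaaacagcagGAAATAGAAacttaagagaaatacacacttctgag
IFI6 and ISG15 held 3 matches each and IFITM1 held 1. The motif was present in 22 of 32 promoters of interferon effector genes (68.8%), against 7.06% of all promoters and 5.65% of those of well-covered protein-coding genes. It was present in 13.6% of the promoters of genes 2-fold higher and in 7.48% of those of genes 2-fold lower. MX1, a GTPase that blocks viral replication, had no match in this window.

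**Figure D2:**
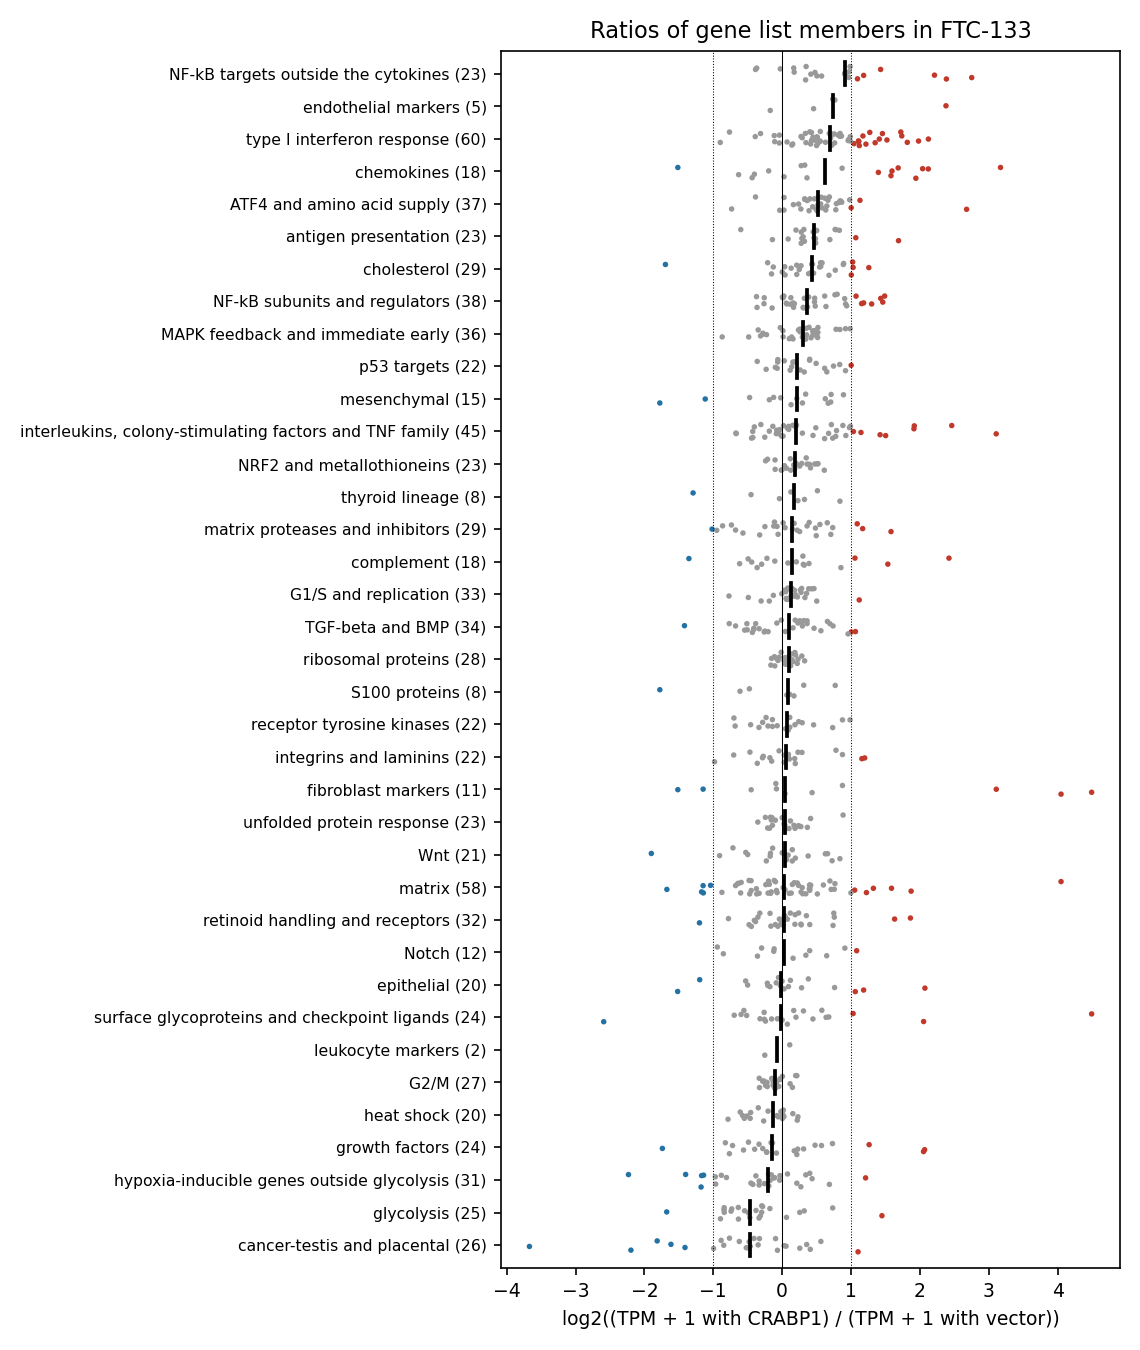
Log2 ratio of TPM plus 1 with CRABP1 over TPM plus 1 with vector in FTC-133 (horizontal axis) for the members of 37 gene lists that passed the level filter, with their number in brackets. Points are genes, red at least 2-fold higher and blue at least 2-fold lower, black bars are list medians, and dotted lines mark 2-fold. NF-kB target, interferon response and chemokine genes have the medians farthest above 0 among lists of more than 5 genes, and glycolysis and cancer-testis and placental genes the medians farthest below.

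Neutrophil-attracting chemokines were higher with CRABP1. Of 31 chemokine ligands and receptors, 18 passed the filter, 8 were 2-fold higher and 1 was 2-fold lower, with a median log2 ratio of 0.62. The median was 0.26 with no level filter and 1.59 at a mean of at least 5 TPM. All 8 are ligands. CXCL2 was at 70.9 and 312 TPM, a ratio of 4.4001-fold (4.02 to 4.83), and CXCL1 at 189 and 781 TPM, a ratio of 4.13-fold (3.89 to 4.39). CXCL3, CXCL5 and CXCL6, which signal through the same receptors, were 4.36-fold (3.32 to 5.79), 3.05-fold (2.84 to 3.28) and 3.298-fold (2.9005 to 3.75) higher. Together with CXCL8, at 203 and 1834 TPM, these made 6 CXC ligands that recruit neutrophils and were past 2-fold. PPBP, a further ligand of this kind, had 0 reads in both libraries. CCL20, which attracts cells bearing CCR6, was at 4.26 and 14.7 TPM. CCL2, a monocyte attractant, was at 0.647 and 3.34 TPM, a low level.
Of the 15 ligands that passed, 3 lay below 0, and the only 1 of them 2-fold lower was CXCL12, the ligand of CXCR4. It was at 21.8 and 6.99 TPM, 3.12-fold (2.69 to 3.65) lower. The ligands of CXCR3, which follow interferon gamma, were low: CXCL10 at 0.782 and 2.26 TPM, CXCL11 at 2.696 and 3.48 TPM and CXCL9 at 0 in both libraries. Of 12 receptors, 3 passed the filter, and those of the neutrophil ligands, CXCR1 and CXCR2, were under it.

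The CXC genes lie together on chromosome 4, and the stretch from ALB to CXCL11 holds 31 protein-coding genes, of which 22 passed the filter. Genes past 2-fold were interleaved with genes that were not. From CXCL8 to CXCL2, 6 CXC genes had log2 ratios from 1.60 to 3.17. PF4 and PF4V1, platelet chemokines within the same cluster, rested on 9 and 3 reads and on 15 and 27 reads. The next gene, MTHFD2L, a mitochondrial folate enzyme, was at 6.85 and 7.62 TPM with a log2 ratio of 0.14. Beyond it lie 4 genes of the EGF family. EREG, epiregulin, was at 7.14 and 32.8 TPM, 4.59-fold (3.97 to 5.34) higher, and AREG, amphiregulin, at 6.49 and 11.4 TPM, 1.76-fold (1.26 to 2.48) higher. Their neighbours EPGN and BTC, at log2 ratios of -0.40 and -0.22, were on the other side of 0. Further along, G3BP2 at 137 and 119 TPM and USO1 at 170.3 and 146 TPM were slightly lower with CRABP1. The 20 Mb of chromosome 4 that holds this stretch had a median log2 ratio of -0.05 over 56 genes.

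**Figure D3:**
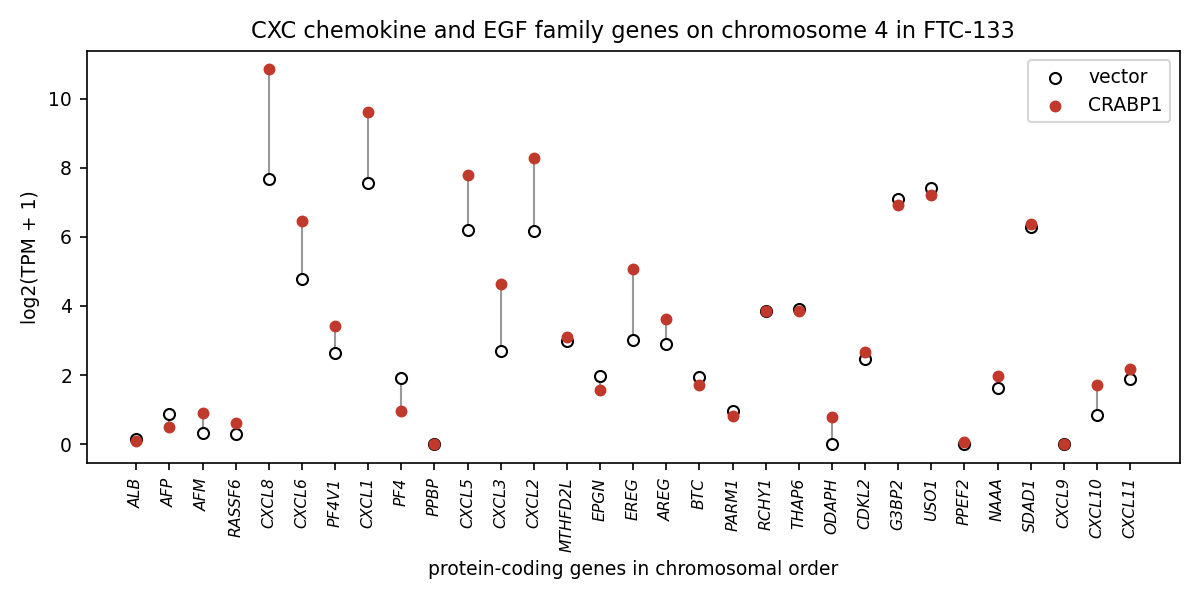
Level as log2(TPM + 1) of 31 protein-coding genes on chromosome 4 in chromosomal order, with vector (open circles) and with CRABP1 (red circles) in FTC-133. The 6 CXC genes from CXCL8 to CXCL2, and EREG, show the wide gaps, while RCHY1, THAP6, G3BP2 and USO1 stay near their vector level.

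Among interleukins, colony-stimulating factors and the TNF family, 45 of 54 genes passed the filter, 8 were 2-fold higher and 0 2-fold lower, with a median log2 ratio of 0.20. Of the 21 ligands that passed, 6 were past 2-fold. CSF2, which matures granulocytes and macrophages, was at 49.4 and 434 TPM and IL6 at 33.5 and 189 TPM. The others were IL24 at 2.23 and 11.2 TPM, TNF at 3.94 and 17.6 TPM, IL32 at 0.916 and 4.13 TPM and LIF at 83.99 and 173 TPM. TNF, a main activator of the NF-kB pathway, was 4.47-fold (3.095 to 6.62) higher, and LIF, a ligand of the IL-6 family, 2.06-fold (1.95 to 2.18). The interleukin 1 genes IL1B and IL1A were at 34.5 and 69.5 TPM and at 57.9 and 93.1 TPM, and neither was called 2-fold higher. Other ligands were lower: TNFSF9, the ligand of a T cell costimulatory receptor, at 116 and 72.4 TPM, CSF1 at 88.1 and 66.3 TPM and IL33 at 37.8 and 30.3 TPM.
The 24 receptors that passed moved less, with 2 past 2-fold. TNFRSF11B, osteoprotegerin, was at 2.12 and 7.85 TPM and TNFRSF9 at 8.44 and 19.9 TPM, so that this receptor was higher while its ligand TNFSF9 was lower. The receptors through which IL-6 family ligands signal were level or lower: IL6ST at 124 and 117 TPM, IL6R at 4.21 and 4.1995 TPM, OSMR at 163 and 119.6 TPM and LIFR at 25.02 and 18.3 TPM. The interleukin 1 receptor IL1R1 was at 9.64 and 19.95 TPM, a plain ratio of 2.07-fold (1.82 to 2.35), but its log2 ratio was short of 1. The TNF receptor TNFRSF1A was at 118 and 104 TPM.

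Most of the NF-kB pathway's own components were higher, with inhibitors and RELB among those past 2-fold. Of 41 subunits and regulators, 38 passed the filter, 33 lay above 0, 7 were 2-fold higher and 0 lower, with a median log2 ratio of 0.35. All 5 subunits lay above 0. RELB, the subunit of the noncanonical arm, was at 17.5 and 44.5 TPM, 2.55-fold (2.21 to 2.92) higher. NFKB1 and NFKB2, which encode the precursors of p50 and p52, were at 29.1 and 51.4 TPM and at 27.4 and 47.4 TPM. REL was at 4.25 and 6.29 TPM, and RELA, the transactivating subunit whose gene is not a usual target of the pathway, at 34.6 and 38.9 TPM.
Of 14 inhibitors that passed, 12 lay above 0 and 4 were past 2-fold. NFKBIA, the inhibitor that NF-kB itself induces, was at 69.6 and 159 TPM, 2.29-fold (2.11 to 2.48) higher, and its promoter is printed above. TNFAIP3, the ubiquitin-editing enzyme A20, was at 49.2 and 134 TPM, 2.73-fold (2.56 to 2.91) higher, and its partner TNIP1 at 54.3 and 105 TPM. ZC3H12A, a nuclease that degrades cytokine RNAs, was at 18.6 and 42.6 TPM, and BIRC3, a ubiquitin ligase of the TNF receptor complex, at 1.44 and 5.72 TPM. BCL3 and TNIP2 were lower, at log2 ratios of -0.26 and -0.37.
Of 19 kinases and adaptors that passed, 2 were past 2-fold, IRAK2 at 24.2 and 69.7 TPM and NOD2 at 0.641 and 2.45 TPM. The IKK subunits were near their vector level, with CHUK at 27.2 and 34.7 TPM, IKBKB at 22.3 and 20.1 TPM and IKBKG at 4.84 and 6.23 TPM. The adaptor MYD88, which carries the interleukin 1 receptor signal, was lower, at 16.8 and 12.8 TPM. The NF-kB motif was found in 10 of 34 promoters of this list (29.4%).

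**Figure D4:**
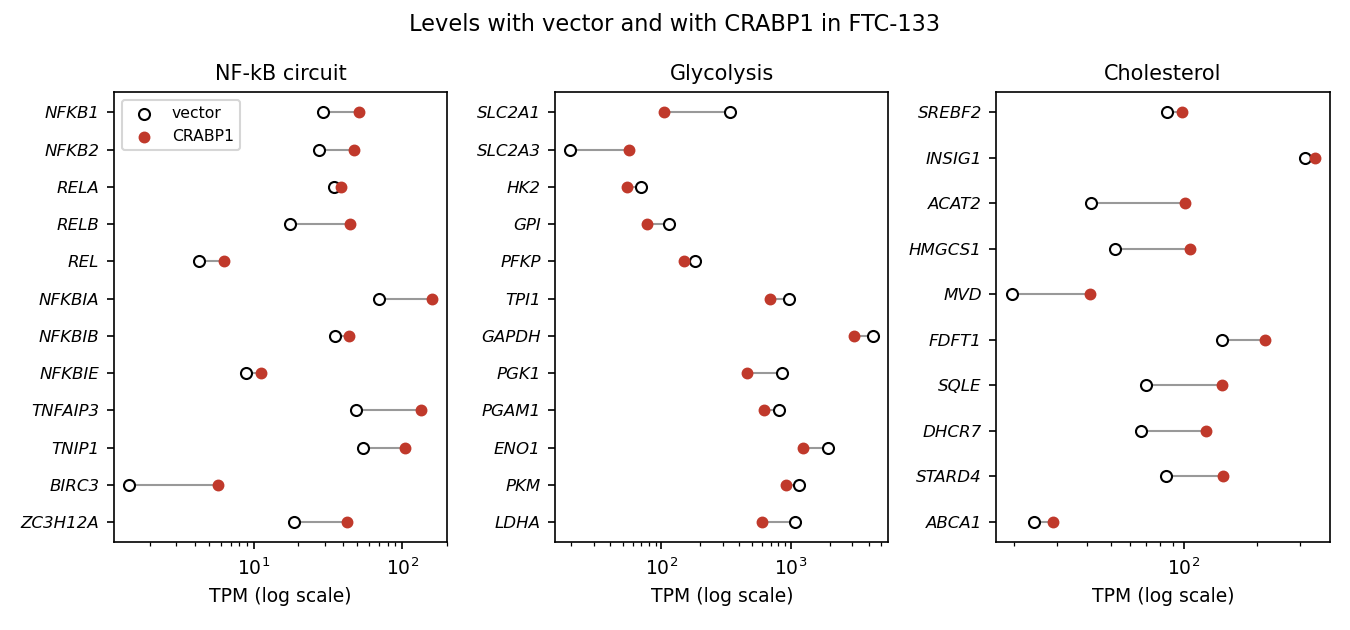
TPM on a logarithmic axis of 34 genes in FTC-133 with vector (open circles) and with CRABP1 (red circles), in 3 panels for the NF-kB pathway, glycolysis and cholesterol metabolism. The red circles lie to the right in the NF-kB panel, to the left for all glycolysis genes shown but SLC2A3, and to the right for all cholesterol genes shown.

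NF-kB targets that are not cytokines lay mostly above 0. Of 30 genes, 23 passed the filter, 20 lay above 0, 6 were 2-fold higher and 0 lower, with a median log2 ratio of 0.91. The median was 0.50 with no level filter and 0.52 with mitochondrially encoded genes removed. PTX3, a soluble pattern receptor, was at 113 and 769.999 TPM, and VCAM1, an adhesion receptor for leukocytes, at 7.71 and 44.5 TPM, 5.77-fold (5.05 to 6.62) higher. SOD2, the mitochondrial superoxide dismutase, was at 42.1 and 199 TPM, 4.72-fold (4.56 to 4.89) higher. TNFAIP6, a hyaluronan-binding protein, was at 7.22 and 21.1 TPM and the bradykinin receptor BDKRB2 at 3.11 and 7.78 TPM. ELF3, an epithelial transcription factor, rested on 9 and 68 reads. IRF1 and IER3 reached 0.97 and 0.99 on the log2 scale, just short of 2-fold. Some classical targets did not follow: ICAM1 was at 1.39 and 0.824 TPM, PTGS2, the inducible cyclooxygenase, at 9.31 and 6.98 TPM and CD83 at 7.55 and 7.39 TPM, while SELE, LCN2 and NOS2 were under the filter. The motif was found in 5 of 17 promoters (29.4%).

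Complement genes lay on both sides, with the central component well above. Of 22, 18 passed the filter, 3 were 2-fold higher and 1 lower, with a median log2 ratio of 0.14. C3, the central component, was at 5.56 and 34.2 TPM, 6.15-fold (5.37 to 7.05) higher. CFB, which joins C3 in the alternative pathway convertase, was at 2.32 and 8.61 TPM, and the C1 proteases C1R and C1S at 4.63 and 10.7 TPM and at 6.91 and 13.3 TPM. CFD, the protease that activates factor B, was lower, at 6.31 and 1.86 TPM, and so were C4A and C4B, near-identical genes whose reads cannot be assigned with certainty. None of the 8 regulators that passed was past 2-fold. The inhibitors CFI and CD59 were at 10.7 and 7.31 TPM and at 67.7 and 57.97 TPM, both lower with CRABP1, whereas CD55 was at 83.1 and 103 TPM.

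Type I interferon response genes were broadly higher. Of 65 genes, 60 passed the filter, 52 lay above 0, 16 were 2-fold higher and 0 lower, with a median log2 ratio of 0.69. Of these 16, 14 were effectors. In all, 38 of 39 effectors lay above 0, with DDX60 the exception at 6.43 and 4.66 TPM. Effectors beyond the best known included OAS2, an RNase L activator, at 35.9 and 122 TPM, EPSTI1 at 4.51 and 17.2 TPM and TRIM22, an antiviral ubiquitin ligase, at 3.801 and 12.8 TPM. ISG15, a ubiquitin-like modifier, was at 79.2 and 204 TPM, 2.57-fold (2.29 to 2.89) higher, and XAF1, a proapoptotic factor, at 14.4 and 34.8 TPM. The IFIT genes moved less, with IFIT1 at 60.9 and 98.5 TPM, IFIT2 at 83.5 and 122 TPM and IFIT3 at 229 and 378 TPM. IFITM1, IFITM2 and IFITM3 resemble each other closely, and their reads may be shared.
Of the sensors of viral RNA, RIGI was at 27.4 and 77.03 TPM, 2.81-fold (2.57 to 3.08) higher, and IFIH1 at 21.6 and 45.6 TPM, 2.11-fold (1.91 to 2.33) higher. The DNA sensors CGAS and STING1 were level, at 14.1 and 14.9 TPM and at 26.6 and 25.8 TPM. All 6 transcription factors lay above 0, with STAT2 at 71.9 and 102 TPM, IRF7 at 6.64 and 10.8 TPM and IRF9 at 5.13 and 6.79 TPM. Among the interferon genes themselves, IFNB1, IFNL1, IFNL2 and IFNL3 were under the filter. IFNE, an epithelial interferon, passed it, at 5.48 and 5.01 TPM. The receptor chains IFNAR1 and IFNAR2 were at 31.9 and 31.05 TPM and at 2.03 and 1.44 TPM. Of the feedback genes, USP18, which shuts the receptor off, was at 14.9 and 30.6 TPM, whereas the cytokine signalling suppressors SOCS1 and SOCS3 were lower, at 2.05 and 0.633 TPM and at 31.4 and 18.1 TPM.

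Antigen presentation genes lay mostly above 0. Of 28, 23 passed the filter, 21 lay above 0, 2 were 2-fold higher and 0 lower, with a median log2 ratio of 0.46. All 16 class I genes that passed were above 0 and none was past 2-fold. B2M, the common light chain, was at 388 and 548 TPM, HLA-B at 126 and 225 TPM and the peptide transporter TAP1 at 22.2 and 31.9 TPM. HLA genes are polymorphic and similar to each other, so their levels depend on how reads were assigned. In class II, HLA-DRA was at 0.443 and 3.66 TPM and the invariant chain CD74 at 14.8 and 32.2 TPM, 2.17-fold (1.87 to 2.53) higher. CIITA, the transactivator of class II genes, was under the filter, and the peptide-loading chain HLA-DMB was lower, at 11.1 and 6.98 TPM.

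The extracellular matrix list had members on both sides. Of 65 genes, 58 passed the filter, 6 were 2-fold higher and 5 lower, and the median log2 ratio was 0.03. Of 18 collagens that passed, 13 lay above 0, 3 were 2-fold higher and 1 was lower. The basement membrane collagens COL4A1 and COL4A2, which share a promoter region, were at 50.9 and 107 TPM and at 44.1 and 89.1 TPM, and COL18A1 at 5.39 and 14.996 TPM. COL4A1 was at 1.05 on the log2 scale and just short of 2-fold, at 0.995, with median-ratio scaling. COL16A1, a collagen associated with fibrils, was at 2.997 and 13.6 TPM, 4.55-fold (3.81 to 5.47) higher. COL1A1, a fibrillar collagen, was at 388 and 175 TPM, 2.22-fold (2.17 to 2.28) lower, and the fibrillar COL5A1 at 436 and 273 TPM and COL1A2 at 213 and 156 TPM. Of 11 proteoglycans, 4 lay above 0, among them BGN at 0.764 and 28.2 TPM, and 2 were 2-fold lower: SDC2, a syndecan, at 8.41 and 1.95 TPM and GPC4, a glypican, at 98.97 and 44.2 TPM. SDC1 and SDC3 were lower as well, at 166 and 106 TPM and at 66.8 and 35.97 TPM.
Among the glycoproteins, POSTN, periostin, was at 140.4 and 424 TPM, 3.02-fold (2.92 to 3.13) higher. THBS2 and THBS1, thrombospondins of similar structure, moved in opposite directions, at 17.4 and 42.1 TPM and at 77.5 and 37.2 TPM. FN1, fibronectin, was at 7983 and 13069.9 TPM, 1.64-fold (1.63 to 1.64) higher. This was the greatest gain in TPM of a protein-coding gene, mitochondrially encoded genes left out. Of the crosslinking and hydroxylating enzymes, 7 of 10 lay below 0, led by P4HA1, the prolyl hydroxylase subunit that hypoxia induces, at 274 and 121 TPM. Its paralogue P4HA2 was at 67.6 and 89.6 TPM, and the transglutaminase TGM2 at 136 and 229.8 TPM.

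Proteases, their inhibitors and adhesion receptors lay mostly within 2-fold. Of 34 protease genes, 29 passed the filter, 3 were 2-fold higher and 1 lower, with a median log2 ratio of 0.15. ADAMTS9, which cleaves proteoglycans, was at 7.03 and 23.03 TPM, 3.27-fold (2.93 to 3.67) higher, and the collagenase MMP1 and the stromelysin MMP10 were at 10.6 and 23.7 TPM and at 1.98 and 5.71 TPM. The most abundant metalloproteinases were level, with MMP14 at 1621 and 1669.6 TPM and MMP2 at 505 and 485 TPM. SERPINB5, maspin, was lower, at 16.1 and 7.44 TPM.
Of 26 integrin and laminin genes, 22 passed, 2 were 2-fold higher and 0 lower, with a median of 0.06. These were the collagen receptor subunit ITGA1 at 3.01 and 7.94 TPM and the laminin chain LAMB3 at 22.8 and 53.5 TPM, 2.35-fold (2.13 to 2.598) higher. LAMA3, its partner in laminin 332, was at 11.5 and 13.2 TPM. ITGB4, the integrin subunit that binds this laminin, was lower, at 11.7 and 5.41 TPM.

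Cell surface and junction genes held some of the widest differences, in both directions. Of 29 surface glycoprotein and checkpoint genes, 24 passed the filter, 3 were 2-fold higher and 1 lower, with a median of -0.02. CD200, a ligand that restrains myeloid cells, was at 0.553 and 5.45 TPM, from 9 and 86 reads. PDCD1LG2 and CD274, the ligands of the receptor PD-1, were at 15.3 and 32.3 TPM and at 35.7 and 53.7 TPM. They neighbour each other on the short arm of chromosome 9, where the median log2 ratio of the surrounding 20 Mb was 0.33. With that median subtracted, PDCD1LG2 fell from 1.03 to 0.70 on the log2 scale, below 2-fold, and with median-ratio scaling it was at 0.97. Further checkpoint ligands were lower, namely VSIR at 7.77 and 4.41 TPM and CD276 at 81.6 and 68.03 TPM. The list also held PDPN, podoplanin, at 1.09 and 46.1 TPM, and CD24, at 91.01 and 14.3 TPM, the outermost genes of either side.
Of 33 epithelial genes, 20 passed, 3 were 2-fold higher and 2 lower, with a median of -0.01. CLDN1, a tight junction claudin, was at 108 and 458 TPM, 4.24-fold (4.04 to 4.44) higher, whereas CLDN3 was at 5.05 and 1.64 TPM and the desmosomal cadherin DSC2 at 5.51 and 1.27 TPM. KRT8 and KRT18 were level, at 87.96 and 87.9 TPM and at 74.9 and 73.6 TPM, KRT86 rested on low levels shared with KRT81, and CDH1, E-cadherin, was under the filter. Of 17 mesenchymal genes, 15 passed, 0 were 2-fold higher and 2 lower, with a median of 0.21. VIM was at 1316 and 1297 TPM and CDH2 at 201 and 177 TPM, the transcription factors SNAI1 and SNAI2 were at 11.3 and 18.6 TPM and at 27.6 and 45.7 TPM, and ACTA2, smooth muscle actin, was at 28.5 and 12.6 TPM. S100A4, a calcium-binding protein often used as a mesenchymal marker, was at 478 and 139 TPM, 3.44-fold (3.17 to 3.74) lower, and was the only 1 of 8 S100 genes past 2-fold, in a list with a median of 0.09. The abundant S100A6 and S100A11 were at 2954 and 3095 TPM and at 1097 and 1235 TPM.

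Glycolysis genes were lower as a group. Of 26, 25 passed the filter, 20 lay below 0, and 1 in each direction was past 2-fold, with a median log2 ratio of -0.47. Of 16 enzymes, 14 lay below 0, and because they are abundant the counting intervals are narrow. GAPDH was at 4354 and 3105 TPM, 1.402-fold (1.39 to 1.42) lower, ENO1 at 1950.05 and 1254 TPM, 1.56-fold (1.53 to 1.58) lower, and LDHA, which makes lactate, at 1073 and 598 TPM, 1.79-fold (1.76 to 1.83) lower. PGK1 was at 858 and 460.3 TPM and TPI1 at 964 and 692 TPM. The enzymes above 0 were the muscle-type phosphofructokinase PFKM at 45.8 and 57.5 TPM and the heart-type lactate dehydrogenase LDHB at 21.6 and 25.9 TPM. GAPDH, ENO1, LDHA and PGK1 were all among the 10 protein-coding genes with the greatest loss of TPM, mitochondrially encoded genes left out. The transporters went apart: SLC2A1, the basal glucose transporter, was at 338 and 105 TPM, 3.22-fold (3.08 to 3.36) lower, and SLC2A3, the transporter with high affinity, at 19.7 and 55.6 TPM, 2.82-fold (2.58 to 3.09) higher. The regulators PFKFB3 and PFKFB4 were lower at 48.4 and 26.6 TPM and at 23.2 and 13.6 TPM, as was TXNIP, a glucose-responsive inhibitor of glucose uptake, at 439 and 244 TPM.

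Hypoxia-inducible genes outside glycolysis were mostly lower too. Of 32, 31 passed the filter, 23 lay below 0, 1 was 2-fold higher and 5 lower, with a median of -0.20. CA9, a carbonic anhydrase of the cell surface, was at 66.3 and 13.3 TPM. The other genes 2-fold lower were AK4, an adenylate kinase, at 114 and 42.7 TPM, ANGPTL4 at 5.42 and 1.84 TPM, P4HA1 and the mitophagy receptor BNIP3 at 105 and 46.9 TPM. NDRG1 was at 91.6 and 46.3 TPM, just short of the limit. Other targets were level or higher: VEGFA, the angiogenic factor, was at 170.3 and 198 TPM, STC1 at 64.03 and 86.9 TPM, and ADM, adrenomedullin, at 17.1 and 40.8 TPM, 2.39-fold (2.06 to 2.78) higher. HIF1A, the alpha subunit itself, was at 2731 and 2095 TPM, 1.303-fold (1.29 to 1.32) lower, and EPAS1, which encodes HIF-2 alpha, was at 41.5 and 67.3 TPM, 1.62-fold (1.53 to 1.73) higher. ACGTG or GCGTG, the cores of the hypoxia response element, occurred in 22 of 26 promoters of this list (84.6%) and in 13 of 23 of the glycolysis list (56.5%). Such short letters are common: 43.1% of all promoters, 57.3% of those of well-covered protein-coding genes and 49.0% of those of genes 2-fold lower held them.

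Genes of the ATF4 programme, which supplies amino acids under stress, were higher almost throughout. All 37 passed the filter, 34 lay above 0, 3 were 2-fold higher and 0 lower, with a median log2 ratio of 0.52. ATF4 itself was at 438 and 654 TPM, and CEBPB, a factor that pairs with it, at 111 and 220.3 TPM. All 9 amino acid transporters lay above 0, with SLC7A5 at 76.5 and 139 TPM and its heavy chain SLC3A2 at 101 and 157 TPM. The serine pathway enzymes PHGDH and PSAT1 were at 22.9 and 40.2 TPM and at 267 and 458 TPM, whereas its last enzyme, PSPH, was level at 65.8 and 67.1 TPM. BCAT1, which transaminates branched-chain amino acids, was at 6.11 and 44.5 TPM, 7.28-fold (6.55 to 8.12) higher, far above the rest of the enzymes. TRIB3, a pseudokinase, was at 107 and 235 TPM and GDF15, a stress cytokine, at 96.4 and 194 TPM. VLDLR and CTH were the members clearly below 0, at 16.4 and 9.45 TPM and at 66.7 and 50.8 TPM. TGATGNAA, a simplified ATF4 site, was found in 5 of 31 promoters (16.1%), against 3.19% of all promoters and 1.51% of those of well-covered protein-coding genes.
The neighbouring stress programmes did not show such a shift. Of 24 unfolded protein response genes, 23 passed and none was past 2-fold, with a median of 0.04. The chaperone HSPA5 was at 1077 and 965 TPM and the sensor ERN1 at 5.66 and 11.3 TPM. Of 22 heat shock genes, 20 passed and none was past 2-fold, with a median of -0.14 and HSP90AA1 at 1113 and 759.98 TPM. Of 26 NRF2 and metallothionein genes, 23 passed and none was past 2-fold, with a median of 0.18. HMOX1, heme oxygenase, was at 328 and 502 TPM, and the ferritin chains parted, FTH1 at 1430.1 and 1903 TPM and FTL at 3746 and 3171 TPM.

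Cholesterol synthesis genes were mostly higher. Of 32 genes, 29 passed the filter, 25 lay above 0, 4 were 2-fold higher and 1 lower, with a median log2 ratio of 0.43. Of 20 synthesis enzymes, 19 lay above 0. The 4 past 2-fold were ACAT2, MVD, SQLE and HMGCS1, of which SQLE, squalene epoxidase, was at 70.3 and 144 TPM, 2.05-fold (1.93 to 2.17) higher, and HMGCS1 at 52.4 and 106 TPM, 2.02-fold (1.89 to 2.16) higher. With median-ratio scaling MVD, SQLE and HMGCS1 were just short of 2-fold, at log2 ratios of 0.97, 0.97 and 0.95, and with the bin median subtracted they were at 0.82, 0.73 and 0.85. INSIG1, which SREBP2 induces together with these enzymes, was at 316 and 346 TPM, and SREBF2, which encodes SREBP2, at 85.1 and 98.7 TPM. The export transporter ABCA1 was at 24.3 and 29.02 TPM.

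Genes of retinoid handling, the system CRABP1 belongs to, showed no common direction. Of 41, 32 passed the filter, 2 were 2-fold higher, of which STRA6 is given here, and 1 lower, with a median log2 ratio of 0.02. STRA6, a receptor for retinol uptake and a known retinoic acid target, was at 1.701 and 8.82 TPM, 5.19-fold (4.02 to 6.81) higher. Of the carriers, CRABP2 and FABP5, which hand retinoic acid to nuclear receptors, were at 23.6 and 28.02 TPM and at 59.8 and 63.1 TPM. Of the receptors, RARB, whose gene is a classical retinoic acid target, was at 40.9 and 17.2 TPM, 2.37-fold (2.09 to 2.703) lower, while RARA was at 16.8 and 17.3 TPM, RARG at 15.1 and 18.5 TPM and RXRA at 7.997 and 7.03 TPM. DHRS3, a retinaldehyde reductase that retinoic acid induces, was lower, at 37.5 and 21.4 TPM. Of the degrading enzymes, CYP26B1 was at 6.74 and 9.22 TPM, and CYP26A1 and CYP26C1 were under the filter, as were the synthesizing dehydrogenases ALDH1A1 and ALDH1A2. ALDH1A3 was at 4.58 and 8.38 TPM. Thus RARB and DHRS3 were lower and STRA6 higher, although all are known targets of retinoic acid.
In the thyroid list, 8 of 19 genes passed, with a median of 0.18, 0 were 2-fold higher and 1 was lower. This was NKX2-1, 2.53-fold (2.21 to 2.91) lower, while PAX8 and FOXE1 were 1.43-fold (1.37 to 1.49) and 1.89-fold (1.54 to 2.31) higher.

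Growth factors had 24 of 31 genes past the filter, 3 of them 2-fold higher and 1 lower, with a median of -0.15. In the EGF family EREG stood apart, since EGF was at 5.35 and 2.59 TPM and TGFA at 58.9 and 34.2 TPM, both lower. PDGFA was at 4.12 and 11.3 TPM, 2.74-fold (2.15 to 3.52) higher. The IGF-binding proteins went in different directions, with IGFBP7 at 6.38 and 29.9 TPM, 4.697-fold (3.59 to 6.21) higher, and IGFBP3 at 19.1 and 5.02 TPM, 3.805-fold (3.11 to 4.68) lower. Of 34 receptor tyrosine kinases, 22 passed and 0 were past 2-fold, with a median of 0.07: MET was at 534 and 484 TPM, AXL at 297 and 316 TPM and EGFR at 83.1 and 98.3 TPM. The matrix receptor kinase DDR2, at 9.72 and 20.2 TPM, came nearest to the limit.
In the TGF-beta and BMP list, 34 of 39 genes passed, 2 were 2-fold higher and 1 lower, with a median of 0.10. The 2 higher were the antagonist FST, at 10.3 and 22.7 TPM, and GDF15. The antagonist NOG, at 12.6 and 25.4 TPM, was not called 2-fold higher. The ligand BMP4 was at 7.89 and 2.33 TPM, 3.39-fold (2.33 to 4.97) lower. The BMP targets ID1 and ID2 were lower as well, at 47.5 and 32.3 TPM and at 7.39 and 4.88 TPM, and the receptor TGFBR2 was at 47.1 and 29.1 TPM. In the Wnt list, 21 of 34 genes passed, 0 were 2-fold higher and 1 lower, with a median of 0.04. WNT9A was at 6.97 and 1.14 TPM, 6.14-fold (3.95 to 9.81) lower, and MYC at 43.004 and 77.7 TPM. In the Notch list, 12 of 18 passed, 1 was 2-fold higher and 0 lower, with a median of 0.02. Of its ligands and receptors 5 of 6 lay below 0, with JAG2 at 4.28 and 1.75 TPM and NOTCH3 at 14.9 and 7.82 TPM, and of its targets 5 of 6 lay above 0, with HES4 at 1.31 and 3.899 TPM.
In the receptor kinase, TGF-beta, Wnt and Notch lists, 0 of the members that passed had fewer than 20 reads. The shares to set beside them are thus those of the well-covered protein-coding genes, 2.06% higher and 1.46% lower. Each list had at most 2 genes past 2-fold in either direction, too few to say whether it differed from these shares.
Among 38 genes of MAPK feedback and the immediate early response, 36 passed, 28 lay above 0 and 0 were past 2-fold, with a median of 0.30. JUN was at 86.5 and 119.97 TPM, FOS at 15.1 and 19.5 TPM and EGR1 at 55.2 and 67.2 TPM, while the feedback inhibitor SPRY1 was at 5.38 and 2.49 TPM.

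Cell cycle genes moved little. Of 35 genes of G1/S and replication, 33 passed, 27 lay above 0, and 1 was 2-fold higher, with a median of 0.13. This was CDKN2B, the inhibitor p15, at 27.5 and 60.9 TPM, on the part of chromosome 9 with a median of 0.36. With that median subtracted its log2 ratio went from 1.12 to 0.76, and no gene of this list was then past 2-fold. PCNA was at 281 and 359 TPM and CCND1 at 231 and 242 TPM. Of 27 G2/M genes, all passed, 22 lay below 0 and 0 were past 2-fold, with a median of -0.11, within 0.33 of 0 on the log2 scale throughout. MKI67 was at 185 and 173 TPM and CCNB1 at 289 and 248 TPM. All 22 p53 target genes passed, 16 lay above 0 and 1, GDF15, was 2-fold higher, with a median of 0.22. GDF15 was just short of 2-fold, at a log2 ratio of 0.94, with median-ratio scaling. CDKN1A was at 51.7 and 57.04 TPM and MDM2 at 14.1 and 11.9 TPM. Of the ribosomal protein genes, a single abundant family, all 28 passed and 20 lay above 0. Their log2 ratios ran from -0.16 to 0.33 with a median of 0.10. Abundant genes at large spread wider. Among 1357 protein-coding genes at a mean of at least 100 TPM, the 5th and 95th percentiles were -0.47 and 0.62.

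Germline and placental genes, which tumours often reactivate, were lower in the main. Of 43, 26 passed the filter, 19 lay below 0, 1 was 2-fold higher and 5 lower, with a median log2 ratio of -0.47, or -0.31 with no level filter. MAGEA4 was at 24.4 and 4.55 TPM, 5.37-fold (4.18 to 6.98) lower, and SSX1, a transcriptional repressor, at 108 and 29.9 TPM, 3.603-fold (3.08 to 4.22) lower. PAGE1 was at 10.9 and 2.88 TPM and GAGE2A, with few reads, at 4.52 and 1.08 TPM. The chorionic gonadotropin gene CGB5 had 54 reads with vector and 0 with CRABP1, and its near-identical copy CGB8 was at 2.71 and 0.859 TPM. Other members of the same families were level, with MAGEA12 at 76.4 and 79.5 TPM, MAGEA6 at 115 and 107 TPM and CTAG2 at 116 and 119 TPM. PAGE2 went the other way, at 175 and 378 TPM. Many of these genes are near-identical copies on the X chromosome or in tandem arrays, so that reads may have been shared among them.

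Genes were also named by rank, whether or not they are in a list. Those with the widest ratios at a mean of at least 10 TPM came from varied families. Higher with CRABP1 was the homeobox gene MEOX2, already counted among the fibroblast markers, at 2.01 and 25.02 TPM. CST2, a secreted cystatin, was at 1.97 and 24.1 TPM, and IL4I1, an amino acid oxidase that restrains T cells, at 4.86 and 35.2 TPM. TFPI2, a protease inhibitor of the matrix, was at 279.5 and 1424 TPM, 5.09-fold (4.93 to 5.27) higher. With mitochondrially encoded genes left out, it gained the third-most TPM after FN1 and CXCL8. CD93, a C-type lectin-like receptor, was at 4.23 and 25.2 TPM, and FAM240B at 2.803 and 17.9 TPM. RND3, a small GTPase that lowers contractility, was at 466 and 1119 TPM, 2.3998-fold (2.34 to 2.46) higher, and AKR1B1, aldose reductase, at 849.6 and 1434 TPM, 1.69-fold (1.66 to 1.72) higher.
Lower with CRABP1 were TMPRSS15, enteropeptidase, at 25.2 and 3.56 TPM, GPR183, an oxysterol receptor that guides lymphocytes, at 39.1 and 6.86 TPM, and ZNF114, a zinc finger gene, at 24.2 and 3.96 TPM. EFNB2, the ephrin ligand of EPHB4, was at 37.1 and 9.06 TPM, 4.09-fold (3.55 to 4.73) lower. The matrix-associated genes PXDN, a peroxidase that crosslinks collagen IV, and AEBP1 were at 103 and 27.99 TPM and at 21.6 and 5.18 TPM. CAVIN2, a caveolar coat protein, was at 218 and 62.7 TPM, APLN, the ligand of the apelin receptor, at 23.1 and 5.94 TPM, PNMA5 at 123 and 30.7 TPM, and MYBPH at 21.8 and 4.17 TPM. By TPM lost, with mitochondrially encoded genes left out, GAPDH was followed by ACTG1, ENO1 and TMSB10. ACTG1, cytoplasmic actin, was at 4868 and 3973 TPM, and TMSB10, thymosin beta 10, at 7647 and 6983 TPM, ratios of only 1.23-fold (1.21 to 1.24) and 1.095-fold (1.07 to 1.12). S100A10, the annexin A2 partner, was at 1867 and 1342 TPM. Of the 57 genes named by ratio, by difference or as non-coding, 5 share exon bases with another gene of the same strand (IL4I1, AEBP1, HIF1A, PGK1 and MIR4500HG) and 18 with a gene of the other strand, and reads of such pairs could not be separated without a stated strand setting.

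Among non-coding genes, LINC02582 was at 0.484 and 9.996 TPM from 6 and 120 reads. LINC01050 was at 4.83 and 37.9 TPM, LINC02154 at 39.2 and 202 TPM, 5.16-fold (4.58 to 5.82) higher, MSC-AS1 at 6.37 and 20.3 TPM and LINC00488 at 16.3 and 46.997 TPM. The lower ones were LINC00460 at 11.2 and 2.91 TPM, LINC03061 at 20.5 and 7.004 TPM, MIR4500HG at 22.9 and 8.69 TPM, FER1L6-AS2 at 9.47 and 3.26 TPM and ST8SIA6-AS1 at 11.4 and 4.03 TPM. LINC00460 (GRCh38, chromosome 13, 106374477 to 106384315) lies beyond the 3′ end of EFNB2 (chromosome 13, 106489731 to 106535662, on the minus strand), and both were lower by similar ratios, 3.85-fold (2.92 to 5.13) and 4.09-fold (3.55 to 4.73). LINC03061, MIR4500HG and GPR183 are on the same chromosome, where the bin from 100 to 120 Mb had a median log2 ratio of 0.06 and that from 80 to 100 Mb of -0.19.

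Ratios were not level along the genome. Medians over protein-coding genes with at least 20 reads, taken per chromosome, ran from -0.09 on chromosome 4 to 0.25 on chromosome 20, where 85.0% of 340 genes lay above 0. In 153 bins of 20 Mb with at least 20 such genes, the medians had an SD of 0.117 and ran from -0.26 to 0.36, while in 8505C the same bins had an SD of 0.0612 and ran from -0.18 to 0.25. The bins were chosen after the values had been seen. The short arm of chromosome 9 had medians of 0.33 and 0.36 in its 2 bins, and the long arm from -0.10 to -0.19. On chromosome 12 the bin from 60 to 80 Mb had -0.08 between bins at 0.20 and 0.29, and on chromosome 3 the bin from 60 to 80 Mb was the lowest of all. Subtraction of the bin median shifted the log2 ratios of 155 named genes by at most 0.36. Of 141 named genes past 2-fold, 19 were then no longer so, with log2 ratios of 1.002 to 1.17 before and of 0.70 to 0.99 after. Genes that moved against their bin include CA9, with a log2 ratio of -2.23 in the chromosome 9 bin at 0.36, and NDRG1, at -0.97 in a chromosome 8 bin at 0.29. RIGI, on the short arm of chromosome 9, and TRIB3, on the short arm of chromosome 20, lay in bins of 0.36 and 0.34, against their own log2 ratios of 1.46 and 1.13.

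**Figure D5:**
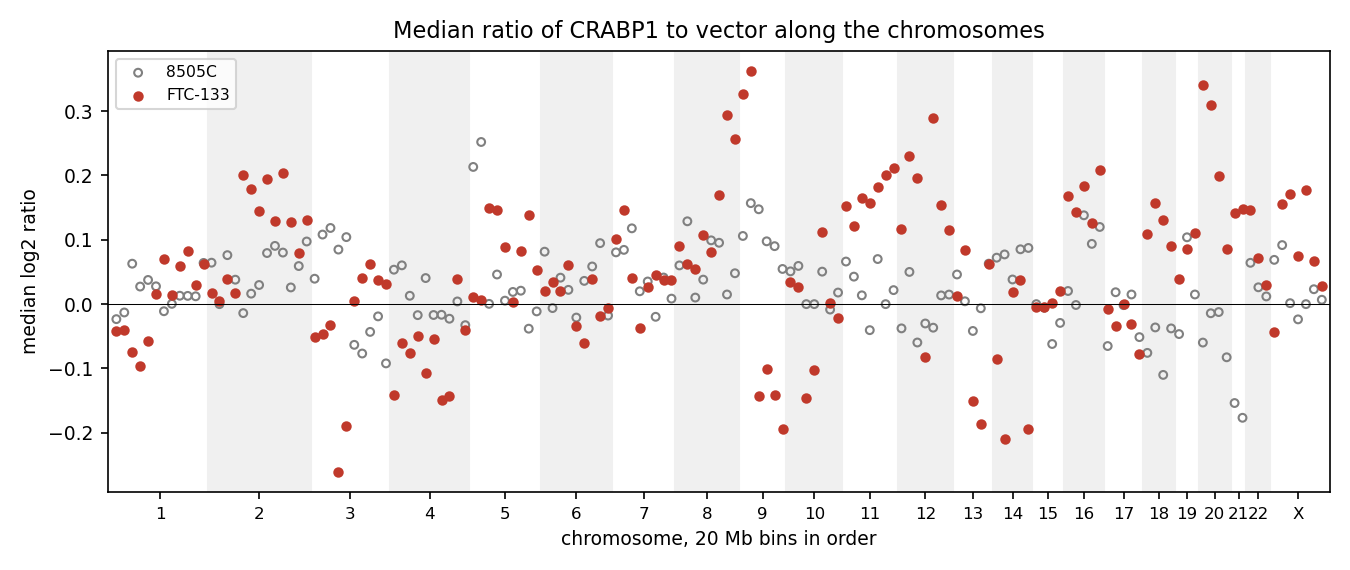
Median log2 ratio of CRABP1 over vector (vertical axis) in bins of 20 Mb in order along chromosomes 1 to X, for FTC-133 (red) and 8505C (open circles). Runs of neighbouring bins share a sign in both lines. The medians spread wider in FTC-133, where the short arm of chromosome 9 and chromosome 20 are highest.

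Set beside the second line, the list medians of FTC-133 differed in sign for several groups, and no test of the difference was possible with 1 library per group. The 8505C medians were taken over the members that passed the filter in FTC-133, and members absent from both 8505C libraries enter at 0. They were -0.32 for chemokines, -0.09 for NF-kB targets, -0.12 for the interferon response and -0.56 for complement, all below 0 where FTC-133 lay above. Of the 18 chemokine genes, 4 lay above 0 in 8505C and 10 below. For comparison, chromosome medians in 8505C ran from -0.16 to 0.09, so the smaller list medians lie within that range. For ATF4 and amino acid supply (0.52), cholesterol (0.26) and glycolysis (-0.18) the 8505C medians had the sign seen in FTC-133.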

How the data were processed

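The authors deposited 1 table of TPM values for 58884 Ensembl genes in 4 libraries, each column summing to 1000000. Per the submitters' processing notes, reads were handled with FastQC and Trimmomatic 0.38 and counted with featureCounts 2.0.0, on GRCh38. Which aligner, annotation, strand setting and TPM step were used is not given in the sources used here. TPM times union exon length in GENCODE 29 (58611 genes) fell within 0.02 of whole multiples of 1 step for 91.6% and 91.5% of the low values of the FTC-133 libraries (up to 50 reads), which gave the read numbers. Exact Clopper-Pearson intervals (95%) of the TPM ratio and floors of 3 reads use these reads and cover counting error only.

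Log2 ratios used a pseudocount of 1 and required a mean of 1 TPM or more. Symbols came from a name table (58472 genes) and promoters from RefSeq (GRCh38.p14). The 37 lists, with 1100 distinct genes of which 893 passed the filter, and the choice of the comparison itself were made with earlier results of these data known. By rules that do not use the lists, the text names CRABP1 and 15 protein-coding genes each way by ratio (mean of at least 10 TPM and 100 reads). By the same kind of rule it names 10 each way by TPM difference, mitochondrially encoded genes left out, and 5 non-coding genes each way. Within the lists it names members past 2-fold and defining members whatever their value; some members are not reported here. Also tried were means over members, a 1.5-fold threshold, median-ratio scaling, mitochondrially encoded genes removed, a filter at 5 TPM or none, and 0.1 as pseudocount. The restriction to protein-coding genes with 20 reads or more and the subtraction of 20 Mb bin medians were chosen after seeing the data. With 1 library per group no p-value was computed. The labels do not say whether the libraries came from separate cultures. The calculations were tested on simulated data and used Python 3.11.15, pandas 2.3.3, NumPy 2.4.6, SciPy 1.17.1 and Matplotlib 3.10.9.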

Additional observations from a re-analysis of the deposited data

Results flagged for a closer look

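In 9 of 11448 protein-coding genes that had 20 reads or more in each line, the log2 ratio was past 2-fold upwards in FTC-133 and past 2-fold downwards in 8505C or the reverse. In these 9, FTC-133 was the line with the higher log2 ratio throughout. The numbers of genes past 2-fold in 8505C, or past it in the same direction in both lines, are not given here. Whether 9 is many or few thus cannot be said. Each line had 1 library per group, so the difference between the lines was not tested. C1R, a protease of the first complement component, was at 4.63 and 10.7 TPM in FTC-133 (log2 ratio 1.06) and at 12.7 and 5.61 TPM in 8505C (-1.05). C3, the central complement component, was at 5.56 and 34.2 TPM in FTC-133 (log2 ratio 2.42) and at 16.7 and 2.30 TPM in 8505C (-2.42). CCL2, a monocyte chemokine, was at 0.647 and 3.34 TPM in FTC-133 (log2 ratio 1.40) and at 27.5 and 10.1 TPM in 8505C (-1.36). CD200, a ligand that restrains myeloid cells, was at 0.553 and 5.45 TPM in FTC-133 (log2 ratio 2.05) and at 10.2 and 2.90 TPM in 8505C (-1.52). CEMIP, a hyaluronan-degrading protein, was at 2.92 and 12.3 TPM in FTC-133 (log2 ratio 1.77) and at 8.23 and 2.98 TPM in 8505C (-1.21). CXCL1, a neutrophil chemokine, was at 189 and 781 TPM in FTC-133 (log2 ratio 2.04) and at 162 and 71.4 TPM in 8505C (-1.17). CXCL2, a neutrophil chemokine, was at 70.9 and 312 TPM in FTC-133 (log2 ratio 2.12) and at 30.7 and 9.31 TPM in 8505C (-1.62). GFPT2, an enzyme of hexosamine synthesis, was at 11.01 and 23.9 TPM in FTC-133 (log2 ratio 1.05) and at 15.8 and 6.06 TPM in 8505C (-1.25). LAMB3, a chain of laminin 332, was at 22.8 and 53.5 TPM in FTC-133 (log2 ratio 1.20) and at 14.2 and 4.63 TPM in 8505C (-1.44). Vector comes first and CRABP1 second in each pair. C3, CXCL1 and CXCL2 started from vector levels within a few fold of each other in the 2 lines, whereas CCL2 and CD200 were under 1 TPM in FTC-133 with vector.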

How the results depend on the processing

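No paired analysis was possible because each group held 1 library, and no library could be left out. Among all genes, 1198 and 979 were 2-fold higher and lower. With a mean of at least 5 TPM the counts were 354 and 237, and at 1.5-fold 2598 and 1928. They were 1773 and 1384 with a pseudocount of 0.1 and 1783 and 1435 with no filter. With mitochondrially encoded genes removed they were 1575 and 1403. Among protein-coding genes that had 20 reads or more, 263 and 187 became 417 and 298 with a pseudocount of 0.1, 174 and 107 with a mean of at least 5 TPM, and 885 and 585 at 1.5-fold. With mitochondrially encoded genes removed these counts were 277 and 241. Fewer genes enter at 5 TPM and more pass at 1.5-fold by construction. The median of the growth factor list, -0.15, became a mean of 0.047. A mean, unlike a median, moves with the size of outlying values. In this list 3 of 24 members were 2-fold higher and 1 lower, with log2 ratios from -1.74 to 2.07. In 13 of 37 lists the sign of the median or mean differed under some alternative. The largest of their medians in size was -0.15, and no direction is given for them: Notch, Wnt, S100 proteins, epithelial, fibroblast, leukocyte, growth factors, integrins and laminins, matrix, receptor tyrosine kinases, retinoid, surface glycoproteins and unfolded protein response. Mean and median differed in sign in 5 of them, namely S100 proteins, Wnt, epithelial, growth factors and surface glycoproteins. Median-ratio scaling shifted ratios by 0.06 on the log2 scale and turned the sign of 6 lists, and subtraction of bin medians that of 8. Of 37 list medians, 36 moved by at most 0.1 under scaling and 23 under bin subtraction. At 5 TPM the endothelial and leukocyte lists gave no value. Genes at low levels depend on the pseudocount, and at this depth most genes under 20 reads give no interpretable ratio. Of 3606 such genes, 738 were 2-fold higher and 674 lower. For only 20 and 15 of them did the whole counting interval lie beyond 2-fold. Of 142 named genes past 2-fold, 19, all of them higher with CRABP1, were no longer past it under some alternative: 8 of 141 with median-ratio scaling, 6 of 142 with mitochondrially encoded genes removed and 19 of 141 with bin medians subtracted. Among them were C1R, CD74, CDKN2B, COL4A1, FST, GDF15, HMGCS1, IFIH1, KRT86, LIF, MMP1, MMP10, MVD, NOD2, PAGE2, PDCD1LG2, SQLE and TRIB3, none of which had a log2 ratio above 1.17. The pseudocount of 0.1 and the other level filters ended none of these calls in the genes that still passed.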
